A study of Mus musculus with 27 samples.

Results

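Cytosolic ribosomal protein genes were followed through the injury and repair of mouse muscle. Members were the genes whose symbol begins with Rpl, Rps or Rplp and a number, without the pseudogene suffix -ps and without the S6 kinases, with a mean of at least 10 TPM (a transcript's length-corrected share of the RNA of a library) over all libraries of both deposited tables. Of 93 such symbols, 86 were members, 51 with large subunit and 35 with small subunit names, out of 55852 entries in the table of injured muscle. The lowest member was Rpl12 at a mean of 23.9 TPM, and the highest symbol left out was Rps3a2 at 5.06. The symbols also took in genes that are not core ribosomal proteins: Rps19bp1 encodes a protein that binds Rps19, Rpl7l1 encodes a factor of large subunit assembly, and Rpl37rt, Rps12l1 and Rps4l are annotated as processed pseudogenes. The core proteins Rpsa, Fau and Rack1 have other names and were described beside the members.

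The injured samples were muscle of male WT and Gsdme KO mice after cardiotoxin (CTX), a toxin that destroys muscle fibres and spares much of the satellite cell pool, collected on D1, D4, D7 and D14 (24 libraries, 3 in each of the 8 groups). A further 3 libraries came from uninjured control muscle of WT mice, which the study describes as contralateral. WT mice were C57BL/6J, and the KO mice lacked gasdermin E, a pore-forming protein, in all tissues. The sample titles call these mice KO, while their genotype entry reads knockdown. The study describes the gastrocnemius, whereas the deposited text also names thigh muscle. All injured groups received CTX, no KO muscle was uninjured, and the study describes 2 sequencing batches that the labels do not assign. Batch therefore cannot be told apart from injury in the control comparison or from genotype on D1. The same holds for day in the WT step from D1 to D4 and for the difference between genotypes in that step.

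The cytosolic ribosome joins a small subunit, which reads the mRNA, to a large subunit, which forms the peptide bond. Its proteins are made in nearly equal numbers, and many of their mRNAs share a stretch of pyrimidines at the 5′ end, the terminal oligopyrimidine (TOP) tract, through which mTORC1 and Larp1 control their translation. Striated muscle is unusual in making Rpl3l, a paralog of Rpl3, which sits near the peptidyl transferase centre. Rpl3l takes the place of Rpl3 in mature fibres, and Rpl3 returns in growing or regenerating muscle.

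The 30 bases around the annotated start of the members were searched for the longest unbroken run of C and T. They comprised 10 before the start and 20 from it on (RefSeq promoters of build GRCm38.p6, transcript strand). Promoters were given for 64 of the 86 members, and Rpl3 was not among them. A run of at least 8 was found in 24 of these 64 genes (37.5%) and in 13.0% of the 27025 genes with a promoter in the same table. The windows below show 3 of the members with the longest runs, Rplp2 of the stalk, Rps27 and Rpl22l1 of the paralog pairs, and Rpl3l, whose longest run was 5 bases. Capitals mark the longest run.
Rpl27a, chr7:109519185-109519214, plus strand: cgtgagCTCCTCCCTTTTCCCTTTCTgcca
Rpl35, chr2:39005112-39005141, minus strand: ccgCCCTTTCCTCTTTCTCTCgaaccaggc
Rpl15, chr14:18270967-18270996, minus strand: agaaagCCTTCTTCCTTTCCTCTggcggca
Rplp2, chr7:141447641-141447670, plus strand: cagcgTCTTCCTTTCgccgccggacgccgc
Rps27, chr3:90213629-90213658, minus strand: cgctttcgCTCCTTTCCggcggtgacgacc
Rpl22l1, chr3:28805498-28805527, plus strand: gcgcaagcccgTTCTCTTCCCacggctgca
Rpl3l, chr17:24727816-24727845, plus strand: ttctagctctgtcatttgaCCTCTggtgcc
The runs of Rpl27a, Rpl35, Rpl15, Rplp2 and Rps27 spanned the annotated start, whereas that of Rpl3l began 9 bases after it. A run is a description of these letters and not a mapped TOP tract.

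Sequencing depth is unknown here because TPM keeps no read number. Between 11785 and 14704 genes reached 1 TPM in a library, and its top 50 genes took between 25.4% and 61.4% of the TPM. The targeted gene Gsdme was from 1.46 to 4.85 TPM in WT and from 0.95 to 2.17 TPM in KO injured libraries, without overlap on D1, D4 and D7 and with overlap on D14, and was at 0 in no library labelled KO. Averaged over days the log2 difference, KO minus WT, was -0.55 (SE 0.095, adjusted p = 0.066, limma), which does not pass the threshold. KO D4 replicate 2 stood apart: 14 leukocyte markers summed to 790 TPM there against 5391 and 4726 in the other KO D4 libraries, 9 regenerating myofibre markers to 63.1 against 1264 and 1382, and 16 acinar pancreas markers to 93.2 against 12.1 and 23.7. WT D1 replicate 3 also differed from replicates 1 and 2, with leukocyte markers at 1156 TPM against 3349 and 5568. Its pancreas markers summed to 55.7 against 4.34 and 6.30, and mature myofibre markers to 185500 against 111000 and 88860. Its regenerating myofibre markers, at 118, were like those of replicate 1 at 119. Of the pancreas markers, 14 of 16 were at 0 in every control library. WT D1 libraries are in both tables, and 80 of the 86 members were within 10% of each other there. The others were Rps26, Rps28, Rpl10, Rpl37rt, Rps27rt and Rps12l1. Their ratios of means, control table to injured table, ran from 0.71 for Rps12l1 to 1.45 for Rps28. The 310 pseudogene entries with -ps, of which Rpl31-ps8 and Rpl10-ps3 were the highest, summed to between 8.03% and 9.51% of the members' TPM, so that reads may have been split between copies, and the values of single members with such copies are uncertain.

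Ribosomal protein mRNAs rose after injury, were at their highest on D4 in WT muscle and were back near the control level on D14. The 86 members together took 3.58% ± 0.326 of all TPM in control muscle (SD, n = 3). The WT mean was 7.81% ± 2.27 on D1 and 11.1% ± 2.24 on D4. It was 6.34% ± 0.467 by D7 and 3.74% ± 0.622 by D14. The control and the injured libraries were quantified in separate tables, and the WT D1 mean was 7.81% in both.

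The KO mean was 7.93% ± 0.730 on D1 and 8.05% ± 2.87 on D4. It was 5.29% ± 0.717 by D7 and 3.76% ± 0.182 by D14. The wide spread on D4 came from replicate 2, at 4.79%, against 10.2% and 9.16% in the others. WT and KO libraries overlapped on D1, D4 and D14. On D7 the 3 KO libraries, at 5.60%, 4.47% and 5.80%, were all below the 3 WT libraries, at 6.87%, 6.16% and 5.99%. The large and small subunits moved together, and the ratio of their summed TPM stayed between 1.25 and 1.33 in all libraries of both tables.

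**Figure D1:**
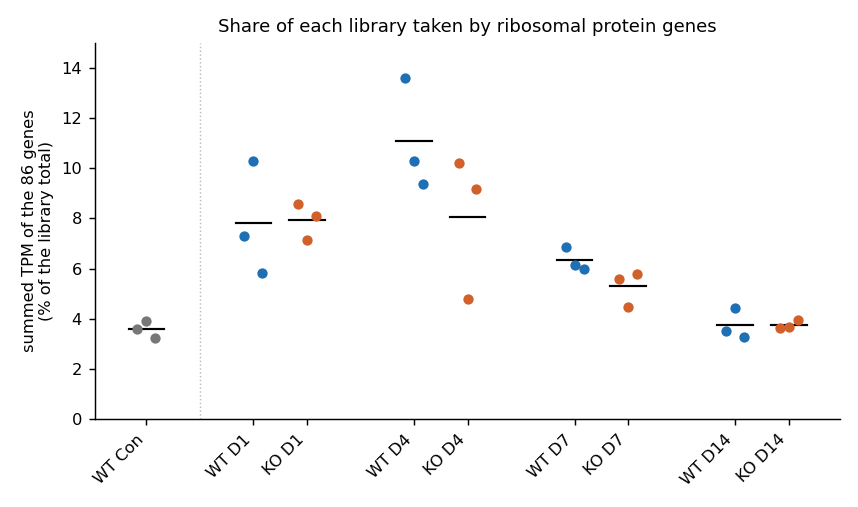
Summed TPM of the 86 ribosomal protein genes as a percentage of the library total (vertical axis) in control muscle (grey), WT (blue) and KO muscle (orange) on each day; points are libraries and bars are group means (n = 3). The WT mean was highest on D4 at 11.1%, KO D4 replicate 2 lay at 4.79%, and D14 libraries lay between 3.26% and 4.44%, beside controls between 3.25% and 3.9%; the control group stands in another table, left of the dotted line.

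The makeup of the tissue changed over the same days. The 14 leukocyte markers summed to between 276 and 398 TPM in control muscle, between 1156 and 5568 on WT D1, between 3949 and 7623 on WT D4 and between 300 and 1047 on WT D14, with none at 0 in all libraries of a group. Mature myofibre markers, 16 of them, ran the other way, from between 184600 and 196700 TPM in control muscle to between 42520 and 91190 on WT D4. Regenerating myofibre markers, 9 of them, summed to between 1577 and 2703 TPM on WT D4 and between 35.3 and 39.5 in control muscle. The highest leukocyte sum of any library, 8052 TPM, was in KO D1 replicate 3, at a share of 8.1% for the members. WT D4 replicate 3, at 3949 TPM, had a share of 9.36%. The part of these markers in the members' levels was not tested. In whole muscle, fewer cells of a type and less RNA per cell cannot be told apart.

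**Figure D2:**
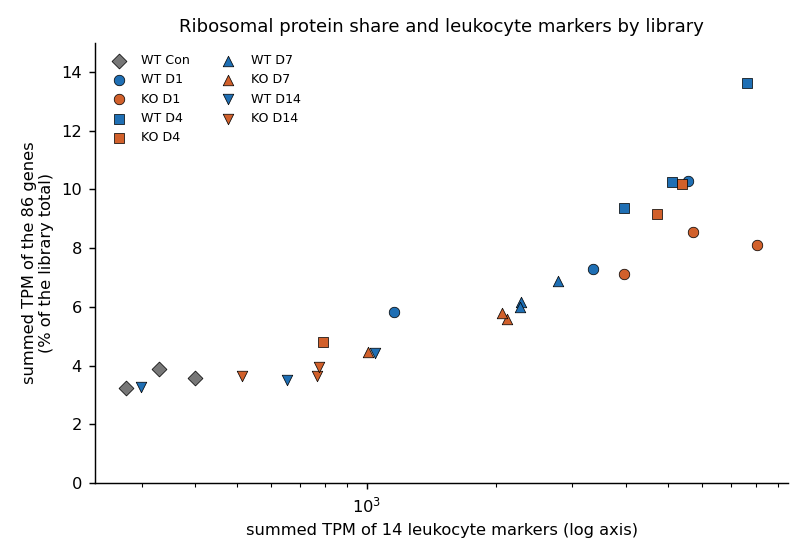
Each point is a library; the horizontal axis is the summed TPM of 14 leukocyte markers on a log scale and the vertical axis the share of TPM in the 86 ribosomal protein genes. Controls, at 276 to 398 TPM of leukocyte markers, had shares of 3.25% to 3.9%, and WT D4 replicate 1, at 7623 TPM, had the highest share at 13.6%. KO D1 replicate 3 had the most leukocyte marker TPM, 8052, at a share of 8.1%. Both axes are shares of the same libraries, so they are not independent.

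To find what injury did to each member, WT D1 muscle was compared with control muscle. Of the 86 members, 80 rose and 2 fell (limma, adjusted p under 0.05), where 55.4% of the 13041 genes tested rose and 5.64% fell. The median member was higher by 1.14 on the log2 scale of TPM + 1, a 2.20-fold difference, against 0.66 for the median of all genes, so that the members lay 0.47 above the shift of the table as a whole. Large subunit genes had a median difference of 1.13 and small subunit genes of 1.19. The libraries of the groups did not overlap for 82 members that were higher and 2 that were lower, where this held for 64.2% and 7.03% of all genes.

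The largest rise was that of Rpl3. It was at 76.8, 85.2 and 72.0 TPM in control libraries and at 504, 823 and 295 TPM on WT D1 in the same table. No control library came near an injured one, and the mean was 6.93 times higher on D1 (log2 difference 2.66, SE 0.330, adjusted p = 0.0014, limma). The ratio of means over the members had a median of 2.27, and the upper quartile was 2.71. Next came the pseudogene Rps12l1, with a rise of 2.62 (SE 0.554, adjusted p = 0.0054), and Rpl12, from 5.54 to 9.88 TPM in control and from 21.5 to 63.2 TPM on D1, with a rise of 2.23 (SE 0.381, adjusted p = 0.0028). Rpl5, which with Rpl11 and 5S rRNA forms the particle that can bind Mdm2, was at 23.9, 29.4 and 20.9 TPM in control and 108, 170 and 72.7 TPM on WT D1 (log2 difference 2.12, SE 0.295, adjusted p = 0.0017, limma). Its partner Rpl11 rose by 1.13 (SE 0.268, adjusted p = 0.0081).

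The proteins of the P stalk, which recruits elongation factors to the large subunit, all rose. Rplp0, its base, rose by 0.97 (SE 0.230), Rplp1 by 1.27 (SE 0.266) and Rplp2 by 1.18 (SE 0.214), with adjusted p-values of 0.0081, 0.0052 and 0.0033 (limma). Rplp1 was also the most abundant member, with a mean of 2773 TPM over all libraries, before Rpl41 at 2098 and Rps15 at 1903.

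Among the members, 2 fell on D1. Rpl3l was at 486, 417 and 437 TPM in control muscle and at 231, 152 and 313 TPM on WT D1, with no overlap (log2 difference -0.999, SE 0.257, adjusted p = 0.011, limma). Rps27rt, a retrogene copy of Rps27, was at 397, 399 and 403 TPM in control muscle and at 116, 49.7 and 41.5 TPM on WT D1 (log2 difference -2.67, SE 0.341, adjusted p = 0.0014). Rps27 itself rose by 1.22 (SE 0.322, adjusted p = 0.012), and reads of these near-identical genes cannot be told apart with certainty. Rps27l was among the members not called (log2 difference 0.38, SE 0.224, adjusted p = 0.17, limma).

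With median-of-ratios scaling, which centres all genes, 20 members were called higher and 2 lower than control, and the median member was higher by 0.35. That is 25.6% of the members, where 42.4% of all genes were called under the same scaling, so that the share of members called was below that of all genes and no longer above it. With the 50 most abundant genes and the mitochondrial genes taken out of the total, members kept in, 50 were higher and 2 lower, or 60.5% of the members beside 44.9% of all genes.

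**Figure D3:**
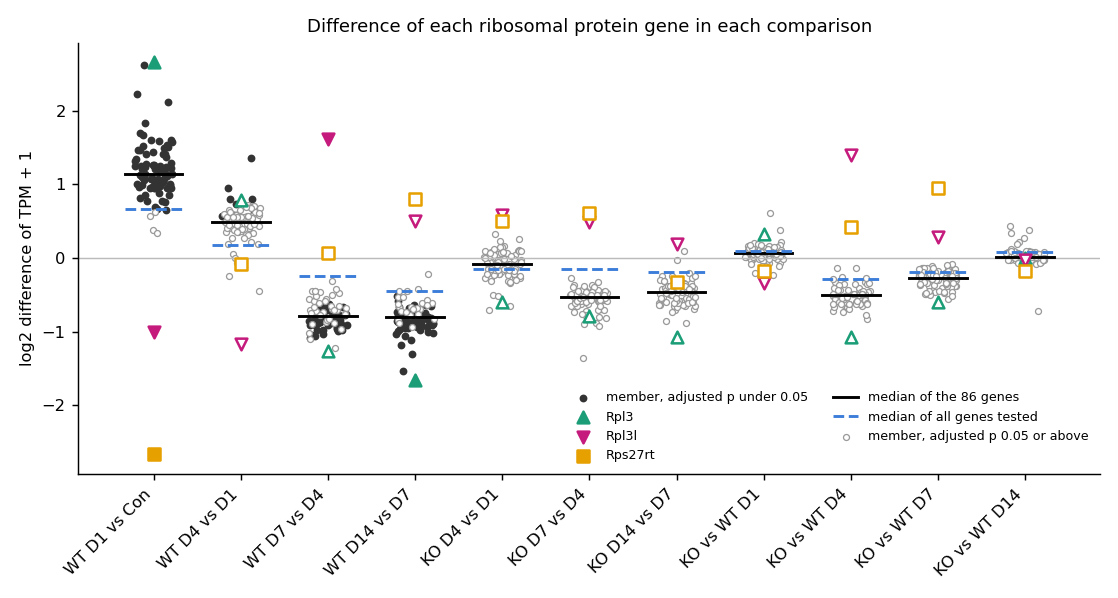
Log2 difference of TPM + 1 (vertical axis) of each of the 86 members in each comparison; filled symbols have an adjusted p under 0.05 (limma), the black line is the median member and the dashed blue line the median of all genes tested. In WT D1 against control the median member was at 1.14 and all genes at 0.66; Rpl3 (triangles pointing up) was at 2.66 there and at -1.66 in WT D14 against D7, and Rpl3l (triangles pointing down) was at -0.999 and 0.51.

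The course of repair was then followed in WT muscle from day to day. From D1 to D4, 8 of 86 members rose and none fell, where 19.8% of the 15718 genes tested were called, 14.6% higher and 5.27% lower. At an unadjusted p under 0.05 there were 28 members, against 32.6% of all genes. Libraries did not overlap for 14 members, all higher on D4, where this held for 29.5% of all genes, 22.1% higher and 7.39% lower. The median member was higher by 0.49, against 0.17 for all genes. The largest rises among those called were those of Rps4l, Rpl41 and Rps28. Rps4l, a copy of Rps4x annotated as a processed pseudogene, was at 17.6, 29.97 and 20.1 TPM on D1 and at 79.8, 47.7 and 51.1 TPM on D4 (log2 difference 1.36, SE 0.348, adjusted p = 0.0093, limma), at no more than 0.0471 times the TPM of Rps4x. Rpl41, the smallest ribosomal protein, rose by 0.94 (SE 0.311, adjusted p = 0.038) and Rps28 by 0.80 (SE 0.280, adjusted p = 0.049). The level of Rps28 depended on the table, as given above, and both groups of this step are from the same table. The count depended on single libraries, given here with the number called among all genes in brackets. It was 30 without WT D1 replicate 2 (3548 of 15644), 2 without WT D1 replicate 1 (2431 of 15688) and 1 without WT D1 replicate 3 (2069 of 15677). It was 0 without WT D4 replicate 1 (2394 of 15587), 1 without WT D4 replicate 2 (2384 of 15641) and 4 without WT D4 replicate 3 (2704 of 15656). The split was 6 higher and 2 lower with median-of-ratios scaling, 2 and 3 with quantile normalization, and 4 and 2 without the most abundant genes. Among all genes 3915 of 15718, 3833 of 15718 and 3667 of 15665 were called under these settings.

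On D4, 80 of the 86 members had their highest WT mean. The exceptions were Rps27l, Rpl7l1, Rps19bp1 and Rpl12, which were highest on D1, and Rpl3l and Rps27rt, which were highest on D14. In KO muscle 42 members were highest on D1 and 42 on D4, with replicate 2 of KO D4 included.

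Between D4 and D7 the members fell together in WT muscle. Of 86 members, 44 fell, where 9.31% of all genes fell, and 1 rose, where 3.04% of all genes rose. At an unadjusted p under 0.05 there were 72 members, against 33.5% of all genes. The median member was lower by 0.78 (log2 difference -0.78), against -0.24 for all genes. The libraries of D7 were all below those of D4 for 74 members, where this held for 33.2% of all genes, and above them for 1, where this held for 9.52%. Rpl10a of the L1 stalk fell most among those called, from 2369, 1726 and 1720 TPM to 1040, 875 and 810 TPM, with no overlap (log2 difference -1.08, SE 0.250, adjusted p = 0.014, limma), followed by Rps28 (log2 difference -1.06, SE 0.280) and Rpl14 (log2 difference -1.04, SE 0.283). All 3 stalk genes fell, with log2 differences of -0.69 (SE 0.195) for Rplp0, -0.88 (SE 0.237) for Rplp1 and -0.91 (SE 0.203) for Rplp2. Rpl3, at 1244, 763 and 669 TPM on D4 and 428, 336 and 315 TPM on D7, had a log2 difference of -1.27 (SE 0.449) and an adjusted p of 0.067, which does not pass the threshold although the groups did not overlap.

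The member that rose was Rpl3l. It was at 40.7, 113 and 206 TPM on WT D4 and at 264, 316 and 333 TPM on D7, with no overlap (log2 difference 1.61, SE 0.425, adjusted p = 0.024, limma). Without WT D4 replicate 1, which had both the lowest Rpl3l and the highest Rpl3, the difference was 0.98 (SE 0.359, adjusted p = 0.15). The count of members called in this step, with that of all genes in brackets, also depended on single libraries. It was 0 without WT D4 replicate 1 (212 of 15587) and 27 without WT D4 replicate 2 (1458 of 15641). It was 1 without WT D7 replicate 2 (268 of 15684) and 0 without WT D7 replicate 3 (222 of 15664). The median member was at -0.63 without WT D4 replicate 1.

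From D7 to D14 the fall went on. Of 86 members 59 fell and none rose, where 31.8% of all genes were called, 30.9% lower and 0.923% higher, and the median member had a log2 difference of -0.80 against -0.45 for all genes. Rpl3 fell most, from 428, 336 and 315 TPM to 106, 160 and 83.8 TPM (log2 difference -1.66, SE 0.449, adjusted p = 0.015, limma). Rps4l (log2 difference -1.53, SE 0.348) and Rpl41 (log2 difference -1.30, SE 0.311) came next. Rpl5 and Rpl11 fell as well, with differences of -1.18 (SE 0.423, adjusted p = 0.042) and -0.94 (SE 0.239, adjusted p = 0.012). Rpl3l stood at 489, 409 and 400.0 TPM on D14, above all D7 libraries, with a difference of 0.51 (SE 0.425) that did not pass the test (adjusted p = 0.35). Median-of-ratios scaling left 3 members called, all lower, or 3.49% of the members beside 13.7% of all genes, the reverse of the order without it. The count was 0 without WT D7 replicate 1, where 632 of 15649 genes were called, and 0 without WT D14 replicate 3 (286 of 15692). It was 28 without WT D14 replicate 1 (3431 of 15688) and 36 without WT D7 replicate 2 (3294 of 15684).

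At D14 most members stood close to control muscle of the other table. The ratio of the WT D14 mean to the control mean had a median of 1.06 over the members, with quartiles of 0.928 and 1.2, and for KO D14 the median was 1.05. Rpl3 was 1.5 times the control mean in WT and 1.44 times in KO muscle, Rpl3l was at 0.968 and 0.945, and Rps27rt was at 0.255 and 0.213.

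**Figure D4:**
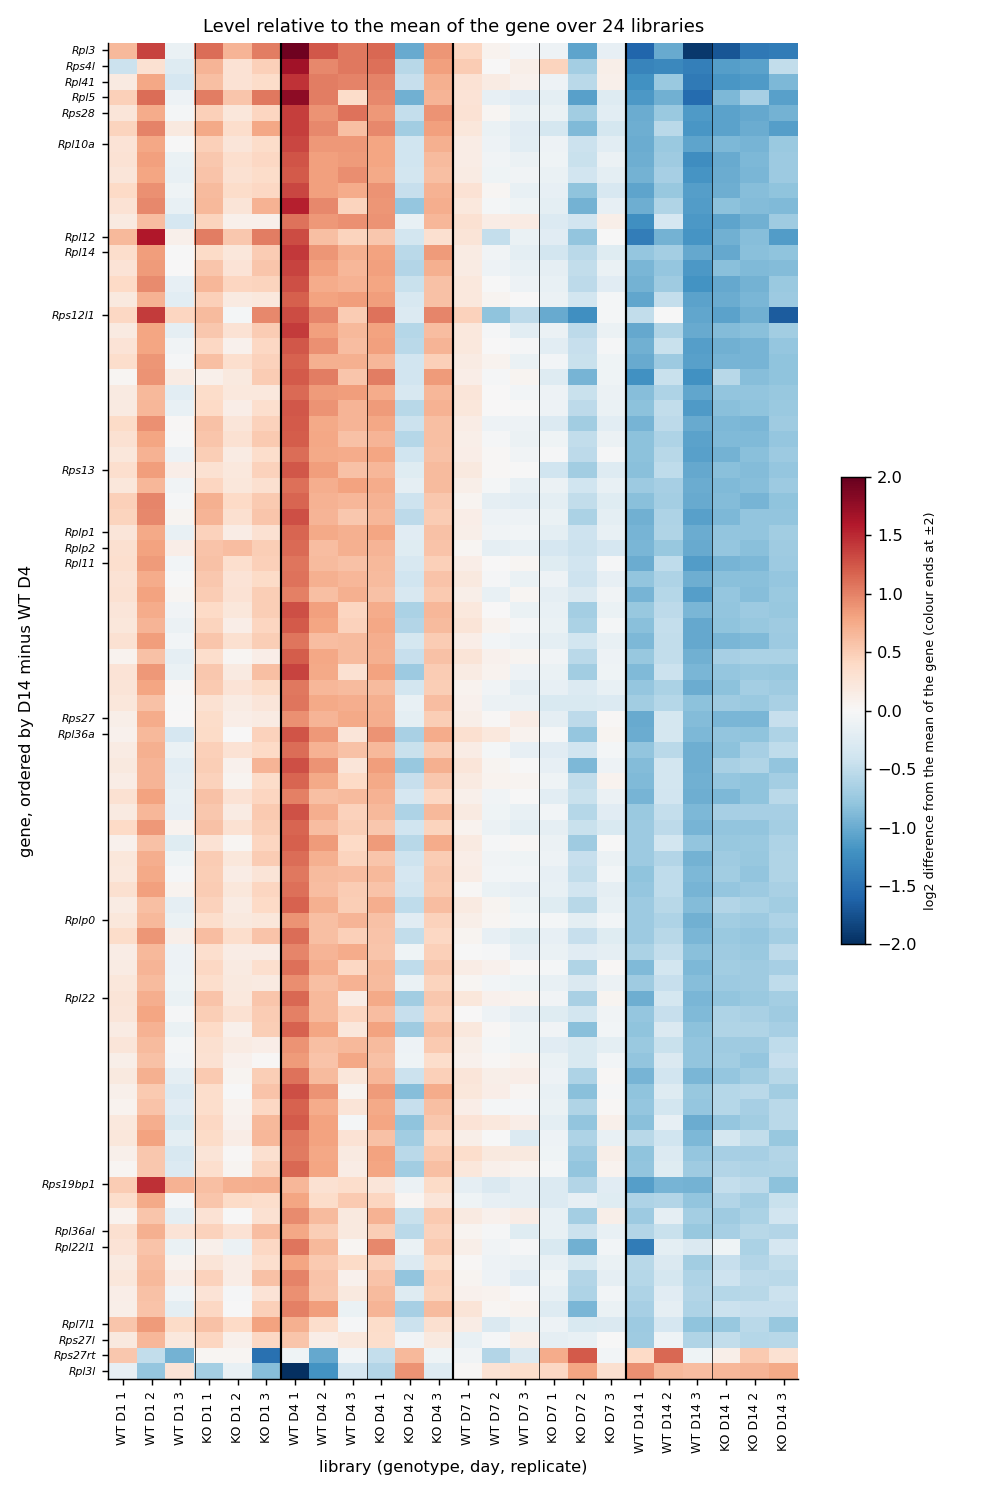
Level of the 86 members (rows) in the 24 injured libraries (columns) as the log2 difference of TPM + 1 from the mean of the gene over these libraries (red above, blue below, colour ends at 2 in either direction); thick lines part the days and thin lines the genotypes, and only genes described in the text are labelled. Most rows were highest in WT D4 and lowest on D14, KO D4 replicate 2 was blue where its group was red, and Rpl3l and Rps27rt ran the other way.

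In KO muscle no member passed the test in any step. From D1 to D4 the median member had a log2 difference of -0.09, with 0 members called and 3 at an unadjusted p under 0.05, where 19.4% of all genes were called and 36.4% were at an unadjusted p under 0.05. From D4 to D7 the median was -0.53, with 0 called and 36 at an unadjusted p under 0.05, where 0.0% and 9.89% of all genes were. From D7 to D14 it was -0.47, with 0 called and 35 at an unadjusted p under 0.05, where 0.56% and 19.3% of all genes were. Both steps that include D4 moved with KO D4 replicate 2. Without it, the median member was higher by 0.28 from D1 to D4, with 0 called, where 2297 of 15674 genes were. From D4 to D7 76 members fell, with a median of -0.91, where 8.79% of all genes were called and their median was -0.30. Rpl3 was among them (log2 difference -1.46, SE 0.370, adjusted p = 0.024, limma). From D7 to D14 the median was -0.62 without KO D7 replicate 2, with 0 called, where 380 of 15694 genes were. Library weights called 82 members (and 7861 of 15718 genes) and a fit of only both groups called 18 (and 4.9% of all genes).

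**Figure D5:**
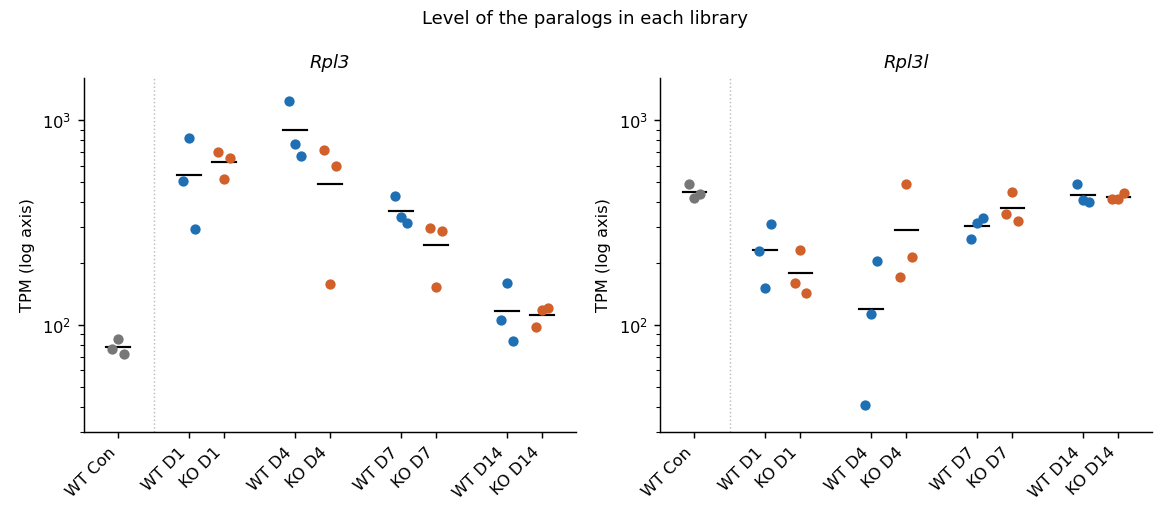
TPM on a log axis of Rpl3 (left) and Rpl3l (right) in each library of control (grey), WT (blue) and KO muscle (orange); bars are group means (n = 3) and the dotted line parts the tables. Rpl3 was between 72.0 and 85.2 TPM in control muscle and reached 1244 TPM in WT D4 replicate 1, where Rpl3l had its lowest value of 40.7 TPM.

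The balance between Rpl3 and its muscle paralog was then followed. Rpl3, on chromosome 15 from 80077791 to 80091868 (mm10, minus strand), and Rpl3l, on chromosome 17 from 24727820 to 24736143 (plus strand), had gene models of 1351 and 1375 bases. Their TPM, which is corrected for length, was set side by side. How reads were assigned between them was not tested. Rpl3l made up 86.4%, 83.0% and 85.9% of the pair in control muscle. On WT D1 it made up 31.4%, 15.6% and 51.6%, and on WT D4 it made up 3.17%, 12.9% and 23.5%. Rpl3 was thus the major form in every WT D4 library and Rpl3l in every control library. The share of Rpl3l then stood at 38.2%, 48.5% and 51.3% on WT D7 and at 82.2%, 71.8% and 82.7% on WT D14.

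In KO muscle Rpl3l made up 18.7%, 31.1% and 18.0% of the pair on D1 and 19.4%, 75.3% and 26.6% on D4. On D7 it made up 53.7%, 74.4% and 52.9%, above all WT D7 libraries, and on D14 80.7%, 77.8% and 78.4%, within the range of WT. The difference in log2 ratio of Rpl3l to Rpl3, KO minus WT, was -0.66 for D1, 2.48 for D4, 0.87 for D7 and -0.02 for D14, with exact two-sided permutation p-values of 0.6, 0.2, 0.1 and 1.0, where 3 against 3 cannot go below 0.1. Averaged over days it was 0.67, with an exact permutation p of 0.20 over 160000 assignments within days. Without KO D4 replicate 2 the D4 difference was 1.36 and the average 0.39, and without WT D4 replicate 1 they were 1.58 and 0.44. The D7 difference was 0.43 without KO D7 replicate 2. The D1 difference was -1.30 without WT D1 replicate 2, -0.036 without WT D1 replicate 3 and -0.99 without KO D1 replicate 2.

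Across the 24 injured libraries, the genes of at least 10 TPM on average whose log2 values were most like Rpl3l were Tcea3 (Pearson r of 0.98), Me3 (0.97), Epm2a, Scn4b and Tmem52 (0.96 each). Those most like Rpl3 were Npc2, Rpl6, Sirpa, Laptm5 and Rps16 (0.99 each). Sirpa and Laptm5 are known from myeloid and other blood cells. These values share groups and library composition among 7024 genes compared and are descriptions.

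A second pair of isoforms, outside the module, was examined beside it. Eef1a1 and Eef1a2 encode the elongation factor that brings aminoacyl-tRNA to the ribosome, and Eef1a2 is the form of mature muscle and neurons. Eef1a2 made up 65.4%, 63.8% and 66.2% of the pair in control muscle, 2.68%, 10.1% and 15.8% on WT D4 and 57.6%, 42.1% and 61.7% on WT D14. Eef1a1 rose from control to WT D1 (log2 difference 2.16, SE 0.337, adjusted p = 0.0023, limma) and fell from WT D7 to D14 (log2 difference -1.64, SE 0.507, adjusted p = 0.024), and Eef1a2 passed the test in neither (-0.66, SE 0.263, adjusted p = 0.056, and 0.08, SE 0.356, adjusted p = 0.87). Of 2 proteins that act on Rpl3, its chaperone Grwd1 rose from control to WT D1 by 1.01 (SE 0.248, adjusted p = 0.0090, limma), and its methyltransferase Mettl18 had a difference of 0.04 (SE 0.219, adjusted p = 0.88).

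The ratios of other paralog pairs are given without a test. That of Rpl22l1 to Rpl22 was from 0.171 to 0.192 on WT D1, from 0.178 to 0.192 on WT D4 and from 0.140 to 0.293 on WT D14, with control muscle from 0.226 to 0.339. Rpl36al stood at 1.47 to 1.71 times Rpl36a in control muscle and at 0.603 to 0.820 times on WT D4. Both rose on WT D1, Rpl36a by 1.46 (SE 0.251) and Rpl36al by 0.85 (SE 0.176) on the log2 scale. Rps27l, which p53 induces, was at 0.240 to 0.327 times Rps27 in control muscle and at 0.101 to 0.115 times on WT D4. Rpl39l and Rpl10l, at 0.65 and 0.00 TPM on average, were too low to be members.

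The genotypes were then compared on each day, to see whether loss of Gsdme changed the ribosomal protein mRNAs. No member was called on any day, in the average over days or in the F test of differences between days (limma), where 0.00636% of all genes were called on D1, 0.0% on each later day, 0.00636% in the average and 0.0% in the F test. At an unadjusted p under 0.05 there were 0 members on D1 (5.38% of all genes), 40 on D4 (22.7%), 1 on D7 (3.06%), 0 on D14 (2.06%), 1 in the average (3.54%) and 2 in the F test (7.65%). A p that misses the threshold does not show that the genotypes were alike.

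On D4 the median member was lower in KO muscle, with a log2 difference of -0.51 against -0.28 for all genes. With median-of-ratios scaling the median member was at -0.16. Rplp2 was at 1115, 786 and 831 TPM in WT and at 819, 431 and 755 TPM in KO muscle (log2 difference -0.48, SE 0.203, adjusted p = 0.21, limma), and the groups overlapped. KO libraries were all below WT libraries for 11 members, where this held for 11.2% of all genes, and above them for 0, where this held for 2.77%. Rpl3l differed most, at 40.7, 113 and 206 TPM in WT and at 172, 486 and 216 TPM in KO muscle, with overlap (log2 difference 1.4, SE 0.425, adjusted p = 0.21). Without KO D4 replicate 2 the median member differed by -0.18 and Rpl3l by 0.96 (SE 0.426, adjusted p = 0.91). Leukocyte markers summed to between 3949 and 7623 TPM in WT and between 790 and 5391 TPM in KO libraries on that day, and regenerating myofibre markers to between 1577 and 2703 and between 63.1 and 1382 TPM. Their part in the difference was not tested.

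On D7 the median member was lower in KO muscle by a log2 difference of -0.27, against -0.19 for all genes. It was -0.15 without KO D7 replicate 2, which had the highest sum of mature myofibre markers of all libraries (203200 TPM), and -0.033 with median-of-ratios scaling. All KO libraries were below all WT libraries for 43 members, where this held for 14.6% of all genes, and Rps27rt alone was above, where this held for 1.85%. Rps13, the member nearest to the threshold among the lower ones by unadjusted p, differed by -0.52 (SE 0.227, adjusted p = 0.78, limma). KO leukocyte markers summed to between 1007 and 2115 TPM and WT to between 2264 and 2784 TPM, also without overlap, and their part was not tested. On D1 and D14 the median differences were 0.06 and 0.02, with 0 members without overlap on D1, where this held for 6.71% of all genes (3.33% higher, 3.38% lower). On D14 Rps19bp1 and Rps4l were above and 0 members below, where 8.42% of all genes did not overlap (7.37% higher, 1.04% lower). For the WT steps and the KO steps, the difference between genotypes had no member called in any of the 3 steps, with 6 members at an unadjusted p under 0.05 for D1 to D4 (median -0.60, 23.3% of all genes) and 0 for D4 to D7 and for D7 to D14 (2.83% and 3.09%). The median for D1 to D4 was -0.23 without KO D4 replicate 2 and -0.13 with median-of-ratios scaling.

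Genes that make or use ribosomes were described from lists of their own. The core proteins Fau, Rpsa and Rack1, which have other names, rose from control to WT D1 and fell from D4 to D7 and from D7 to D14 in WT muscle. Fau, the largest rise of them, rose by 1.68 (SE 0.259, adjusted p = 0.0022, limma). Mitochondrial ribosomal proteins, which serve the separate ribosome of that organelle, made up another list. Of 78 such genes 16 rose and 1 fell from control to WT D1, with a median of 0.21. Among all genes tested 55.4% rose and 5.64% fell, with a median of 0.66, and of the 86 members 80 rose and 2 fell. From D7 to D14 in WT muscle 16 of 78 fell, with a median of -0.21, where 30.9% of all genes fell with a median of -0.45.

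Ribosome assembly genes formed a further list. Of 66 assembly and rRNA processing factors, 63 rose and none fell from control to WT D1, with a median of 1.14. In that comparison 55.4% of all genes rose and 5.64% fell, with a median of 0.66. The factors that rose included Fbl, the methyltransferase of rRNA (log2 difference 2.23, SE 0.283, adjusted p = 0.0014, limma), and Nop58 (2.17, SE 0.334). From D1 to D4 none rose in either genotype, while 12 fell in WT (median -0.41, 5.27% of all genes) and 47 in KO muscle (median -0.87, 12.2% of all genes), led by Dkc1 in WT (log2 difference -1.11, SE 0.300, adjusted p = 0.013) and by Nop58 and Ncl in KO muscle (-2.05, SE 0.460, and -1.92, SE 0.395). KO D4 includes replicate 2, which stood apart, and the test of the difference between genotypes in this step called 0 of the 66. From D1 to D4, 14.6% of all genes rose in WT and 7.18% in KO muscle. The members had medians of 0.49 and -0.09 in these steps. From D4 to D7 and from D7 to D14 in WT muscle 13 and 7 assembly genes fell and none rose, where 9.31% and 30.9% of all genes fell. Of 17 tested genes of RNA polymerase I and rDNA transcription 15 rose on WT D1, where 55.4% of all genes rose, with Ddx21 highest at 1.77 (SE 0.264). From D1 to D4, 2 of the 17 fell in WT and 6 in KO muscle, where 5.27% and 12.2% of all genes fell.

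Translation factors rose in 35 of 41 genes from control to WT D1, where 55.4% of all genes rose. They were led by the helicase Eif4a1 (log2 difference 2.36, SE 0.312, adjusted p = 0.0015, limma) and the poly(A) binding protein Pabpc1 (2.18, SE 0.314). From D1 to D4 in WT muscle 5 of the 41 rose, Eef1b2 most (1.06, SE 0.312), and 6 fell, Eif3j1 most (-1.49, SE 0.188). Among all genes 14.6% rose and 5.27% fell in this step. Regulators of ribosome production formed the next list. Of 17 tested genes of the mTORC1, Myc and TOP list 8 rose on WT D1, with a median of 0.52, where 55.4% of all genes rose with a median of 0.66. Those called included Myc, which rose by 2.73 (SE 0.316, adjusted p = 0.0012), and the translation repressor Eif4ebp1, which rose by 2.20 (SE 0.153). Larp1 rose by 0.75 (SE 0.180, adjusted p = 0.0087) and then fell from D1 to D4 in both genotypes, with differences of -0.61 (SE 0.146, adjusted p = 0.0057) in WT and -0.62 (SE 0.146, adjusted p = 0.0076) in KO muscle. Mtor on WT D1 differed by 0.44 (SE 0.205, adjusted p = 0.089).

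Of the 12 targets of p53, which free Rpl5 and Rpl11 can stabilize through Mdm2, 9 rose on WT D1, where 55.4% of all genes rose. Bax rose by 2.50 (SE 0.301, adjusted p = 0.0013, limma), Cdkn1a by 2.47 (SE 0.314) and Mdm2 by 0.96 (SE 0.196). Cdkn1a, which stops the cell cycle and is also induced as myoblasts differentiate, rose again from D1 to D4 in WT muscle (log2 difference 1.21, SE 0.396, adjusted p = 0.036) and fell from D4 to D7 (-2.02, SE 0.396, adjusted p = 0.0069). It was the one p53 target that rose from D1 to D4, where 3 of the 12 fell, among them Eda2r (-1.39, SE 0.396) and Ccng1 (-0.67, SE 0.163). Among all genes 14.6% rose and 5.27% fell in that step. No gene of these lists was called between genotypes on any day.

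Members with a pyrimidine run at the start were set beside those without one. From control to WT D1 all 24 members with a run of at least 8 rose, with a median of 1.22, and 36 of the 40 without one rose, with a median of 1.12. Among all genes 55.4% rose. In the falls from D4 to D7 and from D7 to D14 in WT muscle the medians were -0.85 and -0.83 with a run and -0.75 and -0.79 without one. The difference between these groups was not tested.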

How the data were processed

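RNA of 27 mouse muscle libraries was sequenced from both ends. The authors deposited TPM per gene and library in 2 tables, one of the 24 injured libraries and one of 3 control and the 3 WT D1 libraries, together with group means and gene model lengths, which were not used in tests. The submitters' processing notes name the build mm10. The aligner, the quantifier and the annotation are not given in the sources used here. Entries of assembled loci in the tables have names of the kind StringTie gives.

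Values were analysed as log2(TPM + 1), so that changes of low genes are understated. Genes with at least 1 TPM in at least 3 libraries of a table were tested. limma 3.58.1 in R 4.3.3 was fitted with group means and a variance trend, all groups of a table sharing 1 spread, and p-values were adjusted over all genes by Benjamini-Hochberg; a gene is called, and said to rise or fall, at an adjusted p under 0.05. Ratios of paralogs were tested by exact permutation. On simulated data with 200 changed genes and independent noise, 35% of genes changed by a log2 of 1 were recovered for WT D7 against D4. Of those changed by 2, 94% were recovered. For KO against WT on D4 these were 52% and 88%, and for WT D1 against control 19% and 80%. Recovery under this adjustment depends on how many genes change. In the data 1941 genes were called for WT D7 against D4 and 7965 for WT D1 against control. The percentages therefore describe the simulation and do not give the recovery in these comparisons. Alternatives were a pseudocount of 0.1, no filter, a filter of 5 TPM, 3 other scalings, library weights, the replicate block, fits of only the groups compared, and leaving out each library. Because TPM are shares, a gain in abundant genes lowers all others. Replicate libraries were compared (r from 0.960 to 0.992 over 27 pairs, 0 identical). The labels number the replicates and do not say that each is a separate animal, so p-values measure the spread between these samples.

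The members and gene lists were chosen with earlier results of these data known. Genes named were the paralog pairs, the stalk and 5S particle genes, preset genes of ribosome biology, and by rule the largest changes, the members farthest from the median and the 2 largest rises and falls of each list. Members listed as exceptions to a count or as differing between the tables were named after their values were seen. Some single genes are not reported here.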

Additional observations from a re-analysis of the deposited data

How the results depend on the processing

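Brackets give the genes called among all genes tested in the same fit. From control to WT D1, 82 of 86 members were called (7965 of 13041). The count was 22 under median-of-ratios scaling (5534 of 13041) and 52 with abundant genes removed (5826 of 12986). With 1 library left out it lay between 74, without WT Con replicate 3 (6084 of 12888), and 85, without WT D1 replicate 3 (8353 of 12136). In WT from D1 to D4, 8 were called (3120 of 15718). The count was 1 with no filter (3199 of 33258) and 5 with quantile normalization (3833 of 15718). It was 2 with library weights (2726 of 15718) and 1 with only the groups compared (1294 of 14172). With 1 library left out it lay between 0, without WT D4 replicate 1 (2394 of 15587), and 30, without WT D1 replicate 2 (3548 of 15644). In WT from D4 to D7, 45 were called (1941 of 15718). The count was 20 with no filter (1514 of 33258) and 19 with quantile normalization (2256 of 15718). It was 13 with abundant genes removed (1737 of 15665) and 85 with library weights (10595 of 15718). With 1 library left out it lay between 0, as without WT D4 replicate 1 (212 of 15587), and 38, without WT D4 replicate 3 (1571 of 15656). In WT from D7 to D14, 59 were called (5000 of 15718). The count was 31 with no filter (3382 of 33258) and 3 with median-of-ratios scaling (2157 of 15718). It was 12 with quantile normalization (2106 of 15718) and 18 with abundant genes removed (2700 of 15665). With 1 library left out it lay between 0, as without WT D14 replicate 3 (286 of 15692), and 62, without WT D14 replicate 2 (4181 of 15695). In KO from D1 to D4, 0 were called (3049 of 15718). The count was 1 under median-of-ratios scaling (4134 of 15718) and 1 under quantile normalization (4204 of 15718). It was 2 with abundant genes removed (4206 of 15665). With 1 library left out it was from 0 to 1, the highest without KO D4 replicate 1 (3988 of 15641). In KO from D4 to D7, 0 were called (0 of 15718). The count was 1 under median-of-ratios scaling (19 of 15718) and 10 with library weights (278 of 15718). With 1 library left out it was from 0 to 76, the highest without KO D4 replicate 2 (1378 of 15674). In KO from D7 to D14, 0 were called (88 of 15718). The count was 82 with library weights (7861 of 15718) and 18 with only the groups compared (652 of 13309). No alternative called a member between genotypes on any day or in the F test. The log2 ratio of Rpl3l to Rpl3 on D14, KO minus WT, was between -0.32 and 0.13 with 1 library left out. Rps2 from WT D7 to D14 had a difference of 0.075 under median-of-ratios scaling. No filter adds genes to the adjustment and leaving out a library lowers the sample number; for the other settings the cause was not tested.

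Same-numbered WT and KO libraries correlated in their deviations from the group means between -0.40 and 0.39, with 4 of 12 pairs over 0.1, so that the numbers were not taken to pair these samples. Control muscle was not part of this check. It is described as contralateral, so it may come from the WT D1 mice, which the labels do not say. The main fit treated control and WT D1 libraries as independent. With the replicate block the counts were 84 for control to WT D1, 6, 44 and 60 for the WT steps and 0 for each KO step and genotype comparison, and the average ratio difference had an exact sign-flip p of 0.22. Among all genes 6952 of 13041 were called for control to WT D1. For the WT steps 3079, 1913 and 5024 of 15718 were called, and for the KO steps 3004, 0 and 66.

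Depth is unknown, so that small differences in low members such as Rpl12 and Rps4l cannot be weighed against counting error. TPM also depend on composition: the median of all genes itself moved by up to 0.66 between groups.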

Other observations

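Rps3a2, a copy of Rps3a1 that fell below the level limit of the module, was listed at 52.1, 53.5 and 44.0 TPM in the control libraries and at 0 in all 3 WT D1 libraries of the same table, and was at a mean of 0.092 TPM over the 24 injured libraries. Over all genes of that table, 3 were at 10 TPM or more in every control library and at 0 in every WT D1 library, of which Rps3a2 was the only one with a ribosomal protein symbol, and 8 showed the reverse. Rps3a1 was from 351 to 388 TPM in control and from 606 to 1081 TPM on WT D1. Rps27rt, at 397 to 403 TPM in control muscle, was on D14 from 63.9 to 152 TPM in WT and from 73.2 to 98.1 TPM in KO muscle, while Rps27 was from 580.0 to 1246 TPM in control muscle. Whether batch or read assignment moved with these copies was not tested.

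The lists of other cell types gave no call between genotypes on any day. The 8 adipocyte markers summed to between 408 and 485 TPM in WT and between 760 and 2067 TPM in KO libraries on D14, 7 erythrocyte markers to between 670.2 and 4687 TPM and 9 Schwann cell markers to between 126 and 1745 TPM over the injured libraries, the last highest in KO D4 replicate 2, and 12 cell cycle markers to between 147 and 510 TPM on WT D4 and between 27.7 and 32.1 TPM on WT D14.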
